A study of Mus musculus with 25 samples.

Results

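The 35 genes described here are interferon-stimulated genes, the genes that cells switch on after type I interferon binds its receptor. They were taken from a written list of symbols, which was chosen with earlier results of these data known. All 35 were found among the 46078 genes of the count table and passed the filter on low counts that left 14703 genes. RNA had been sequenced from sorted CD4+ T cells. The mice were of the C57BL/6NTac strain and were wild-type, miR-150 knock-out or miR-150 knock-in. Mature lymphocytes hold high levels of this microRNA. Cells came from naive mice or from mice in which EAE (experimental autoimmune encephalomyelitis), a model of multiple sclerosis set off by immunisation, had been induced 7 days before. Below, naive names the mice that cells and libraries came from, and not a state of the T cells. The wild-type day 7 group held 5 libraries and each of the other 5 groups held 4, which gave 12 naive and 13 day 7 libraries. The labels give neither the tissue the cells were sorted from, nor the age of the mice, nor how the alleles were built. Whether each library is a mouse of its own is not said either, and the p-values therefore rest on a spread between samples that may be technical. Total counts ran from 6024043 to 49489134 per library, and the lowest count of any of the 35 genes in any library was 10. Mir150, the gene of the targeted microRNA, had 0 counts in all 8 knock-out libraries. It ranged from 12.4 to 25.7 CPM (the count scaled by library size) in the 9 wild-type and from 9.08 to 29.2 in the 8 knock-in libraries. A pair of libraries stood apart in the genes described here, knock-out naive replicate 1 at the high end and knock-out day 7 replicate 3 at the low end, and the calls of the 35 genes that were lost without them are named. Replicate numbers only name libraries.

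Type I interferons signal through the receptor chains Ifnar1 and Ifnar2 and the kinases Jak1 and Tyk2, which activate STAT transcription factors. Stat2 and Irf9 are subunits of the complex ISGF3, which binds the interferon-stimulated response element (ISRE) in promoters. The induced genes sense viral RNA and DNA, block translation and replication, and feed back on the receptor. T cells carry the receptor and keep a basal level of many of these genes without infection.

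Many of the interferon-stimulated genes were lower in CD4 T cells at day 7 of EAE than in those of naive mice. In the mean over the genotypes, 19 of the 35 fell and 0 rose (edgeR quasi-likelihood test, Benjamini-Hochberg adjusted over all genes tested). Of all 14703 genes, 5.06% were called lower in that comparison and 6.16% higher. Because the list was chosen with earlier results of these data known, this contrast is a description and not an independent test. The log2 fold change was negative for 33 of the 35, with a median of -0.33 beside -0.0036 over all genes, of which 51.0% were negative. The largest falls were in the IFIT family and in Rsad2, with log2 fold changes of -1.51 for Ifit3b and -1.44 for Rsad2. The smallest called change was in Adar, which fell by 0.15. The called members differed in how far their calls held. Irf9, Ddx58, Ifit1, Ifit2, Ifit3b, Samd9l, Dtx3l and Parp14, 8 of the 19, were called in each of the 31 alternative analyses, which changed the scaling, the filter, the tool or the libraries used. Ifih1, Zbp1, Oasl2, Ifit3 and Rsad2 lost the call in 1 to 3 of them, and Usp18, Adar, Cmpk2, Parp9, Trim30a and Xaf1 in more than 3. The count rests in part on knock-out naive replicate 1, the library with the highest level of these genes: without it 11 members were called lower, and Usp18, Ifih1, Adar, Rsad2, Cmpk2, Parp9, Trim30a and Xaf1 were not. Without it and the library with the lowest level, knock-out day 7 replicate 3, 9 were, with Zbp1 and Oasl2 no longer called either, and the median was -0.25. The shares of all genes called in these fits are not given here, so the smaller counts are not read as a result about the members alone. In bulk RNA, fewer cells that express a gene and less of its RNA per cell cannot be told apart.

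**Figure D1:**
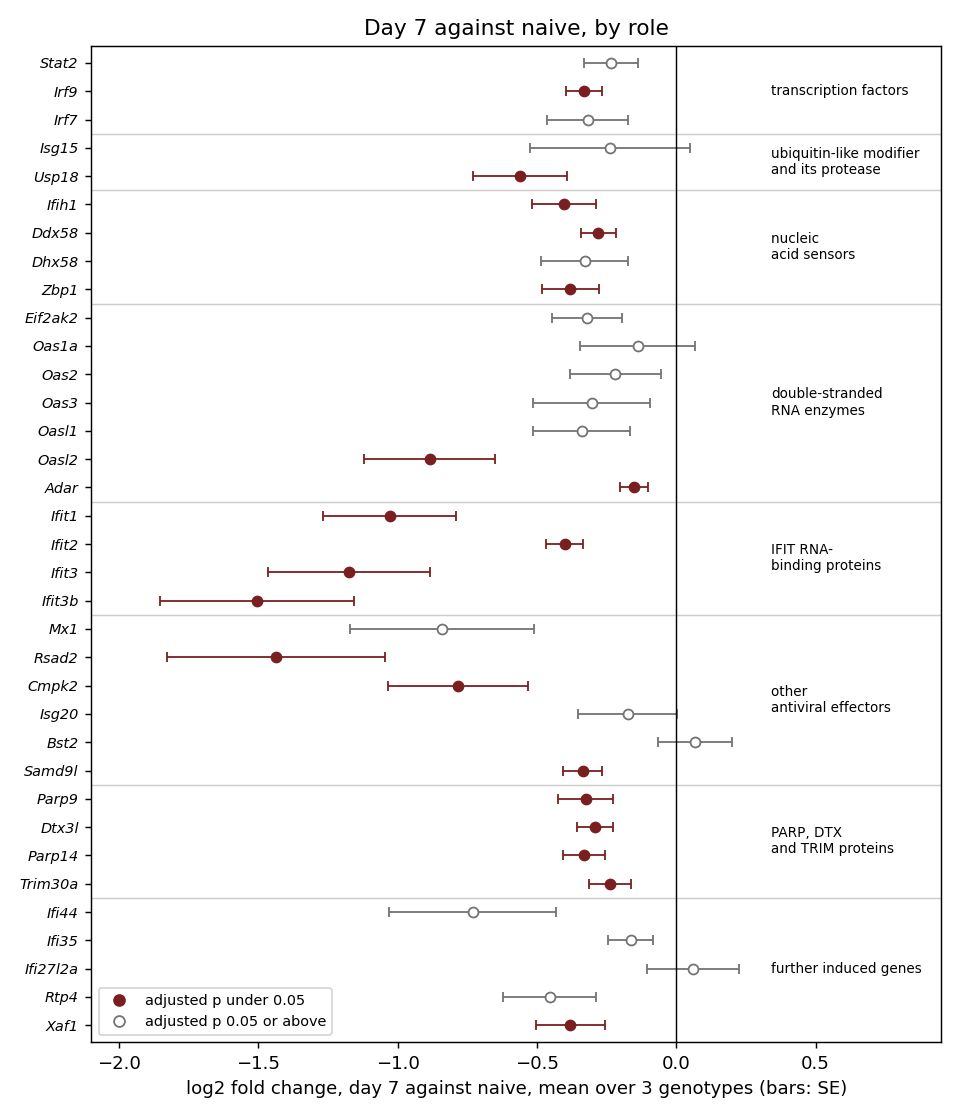
Log2 fold change of the 35 genes between day 7 and naive libraries, averaged over the 3 genotypes, on the x axis, with genes on the y axis grouped by role. Points are edgeR estimates, bars are standard errors derived from the test statistic and filled points passed the adjusted p threshold of 0.05. All 19 filled points lie to the left of 0, and Bst2 and Ifi27l2a are the 2 open points to the right of it.

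The basal level of the 35 genes spanned a wide range. Per kilobase of exon, the mean over 25 libraries was highest for Ifi27l2a at 81.7 CPM per kb, followed by the nucleic acid sensor Zbp1 at 36.9, Samd9l at 35.7 and Trim30a at 35.1. Ifi44 was lowest at 0.717 CPM per kb, below Rsad2 at 1.248 and Cmpk2 at 2.06. Between libraries, the genes with low levels moved most: the ratio of the highest to the lowest library in CPM was 92.1 for Rsad2, 31.1 for Ifit3b, 23.7 for Mx1 and 18.8 for Ifi44. The median ratio over the 35 genes was 3.17. Adar, an abundant member, varied least, with a ratio of 1.497.

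A level common to the 35 genes was computed for each library as the mean over genes of log2 CPM minus the gene's own mean. The wild-type naive libraries had levels of 0.63, -0.018, 0.70 and -0.066, those of knock-out naive 1.17, 0.56, 0.26 and -0.25, and those of knock-in naive -0.45, 0.50, -0.12 and -0.39. At day 7 the level was -0.39, 0.16, 0.51, -0.62 and -0.018 in wild-type, -0.19, -0.048, -0.74 and -0.26 in knock-out and 0.076, -0.48, -0.47 and -0.060 in knock-in. Naive libraries were higher on average, and the ranges of naive and day 7 libraries overlapped in every genotype. The SD between libraries of a group was 0.426 on this log2 scale, about as large as the gap between the mean of the naive libraries, 0.21, and that of the day 7 libraries, -0.20. Knock-out naive replicate 1 stood highest of all 25, with the highest value for 28 of the 35 genes and a place among the top 5 for all 35. Wild-type naive replicates 1 and 3, knock-out naive replicate 2, knock-in naive replicate 2 and wild-type day 7 replicate 3 followed. Knock-out day 7 replicate 3 had the lowest value for 10 genes. Wild-type day 7 replicate 4, knock-in day 7 replicate 2 and, among the naive libraries, knock-in naive replicate 1 each had it for 6. Total counts were 38506314 in the highest and 49489134 in the lowest of these libraries. The summed CPM of 10 myeloid marker genes was 17.9 in knock-out naive replicate 1, 21.5 in knock-out naive replicate 4, whose interferon gene level was -0.25, and 18.7 in knock-out day 7 replicate 3. The highest and the lowest library thus both had myeloid sums above the naive median of 8.70, and the part of these cells in the level was not tested.

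**Figure D2:**
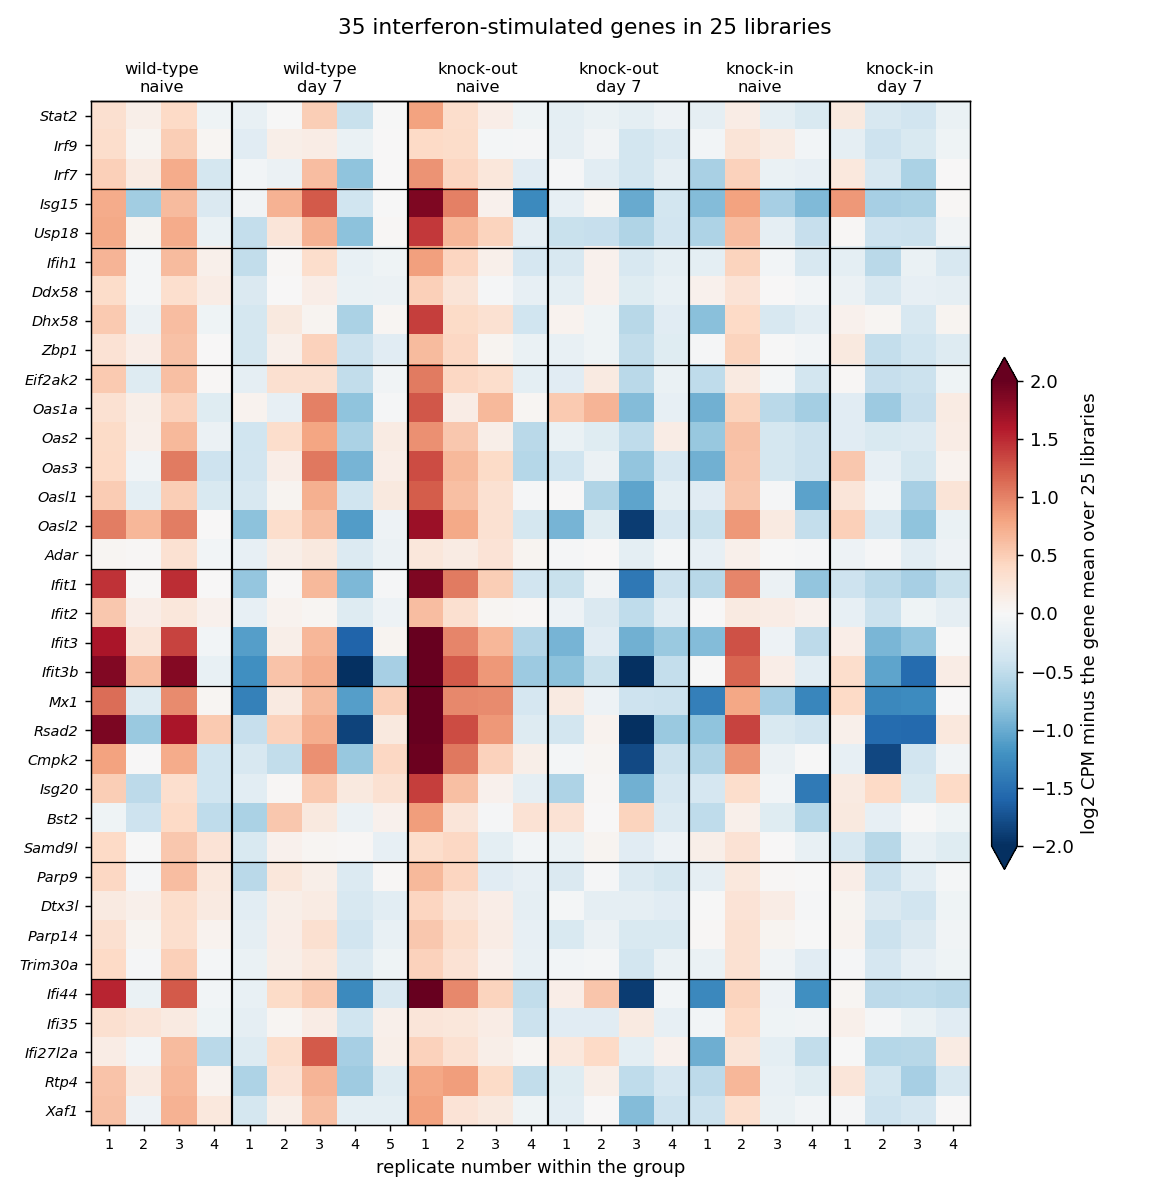
Log2 CPM of each of the 35 genes (vertical axis, grouped by role) minus its mean over all libraries, for the 25 libraries (horizontal axis, replicate numbers within the 6 groups; numbers only name libraries), with red above and blue below the mean. Columns shade together from top to bottom: knock-out naive replicate 1 is red and knock-out day 7 replicate 3 blue for most genes.

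**Figure D3:**
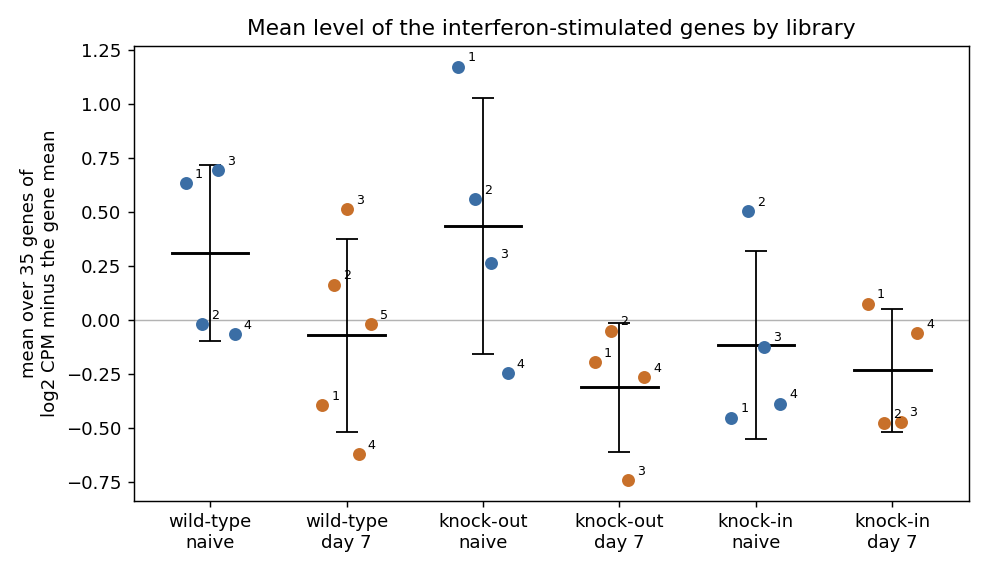
Mean over the 35 genes of log2 CPM minus the gene mean (vertical axis) for each library by group (horizontal axis). Points are libraries with their replicate number, blue for naive and orange for day 7, long lines are group means and bars 1 SD. The highest point is knock-out naive replicate 1 at 1.17 and the lowest knock-out day 7 replicate 3 at -0.74.

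The genes also moved together from library to library within groups. After each group's mean was removed, the log2 CPM of a member was compared over the 25 libraries with the mean of the other members. Pearson's r ran from 0.601 for Bst2 to 0.963 for Usp18, with a median of 0.903, beside a median of 0.000745 over all genes tested. All 35 members had r above 0.5, as did 2.72% of the genes tested. These r values describe libraries that share depth and composition across genes, and genes are not independent replicates. Outside the written lists, the genes with the most similar pattern were H2-T24 (r = 0.906), a class I histocompatibility gene, Trafd1 (r = 0.869), Ifi214 (r = 0.858), a member of the interferon-inducible p200 family, Ddx24 (r = 0.794), AW011738, Rnf114, Zfp365, Tor1aip2, Sdc3 and Ppia. The last of these had r = 0.726. Among the 50 most similar of all genes tested, 27 were members, 18 belonged to a separate list of 60 further type I interferon-induced genes and 1 to the interferon-induced GTPases.

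Because members moved together, their promoters were searched on both strands for the ISRE core, a pair of GAAA words with 2 bases between them. Promoter sequence (RefSeq, GRCm38.p6, 250 bases before to 50 after the start) was matched for 26 of the 35 genes. The core was found in 13 of the 26, 50%, and in 3.99% of all genes with such a promoter. A longer form, the core followed by CT, was found in 7 members (26.9%) and 0.303% of genes. The gamma-activated site word TTCNNNGAA was found in 7 members (26.9%) and 9.55% of genes. Of the 13 with the core, 7 fell at day 7, with a median log2 fold change of -0.30. Of the 13 without it, 8 fell, with a median of -0.34. The presence of the word in this window thus did not separate the genes that fell from those that were not called. Log2 fold changes ran from -1.51 to 0.066 with the core and from -0.886 to -0.152 without it. Shown here are 30 bases around the core, 5′ to 3′ on the strand of the gene, with the core in capitals (a pair of TTTC words where it lies on the opposite strand). Ifit1, Ifit3, Ifit3b and Rsad2 are shown because they had the largest falls, and Stat2, Isg15, Oas3 and Bst2 as examples that carry the core and were not called. Eif2ak2 and Oas1a also carry the core and were not called, and are not shown. Isg15 has 3 overlapping cores and Bst2 has 2. A single window is shown for each, so parts of the other cores stand in lower case.
Ifit1 at chr19:34640775-34640804, plus strand: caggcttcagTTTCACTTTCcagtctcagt
Ifit1 at chr19:34640794-34640823, plus strand: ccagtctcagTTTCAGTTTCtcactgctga
Ifit3 at chr19:34583363-34583392, plus strand: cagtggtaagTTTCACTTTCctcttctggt
Ifit3 at chr19:34583397-34583426, plus strand: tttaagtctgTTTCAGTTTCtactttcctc
Ifit3b at chr19:34607759-34607788, plus strand: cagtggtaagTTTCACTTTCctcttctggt
Ifit3b at chr19:34607793-34607822, plus strand: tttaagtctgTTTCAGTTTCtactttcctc
Rsad2 at chr12:26456553-26456582, minus strand: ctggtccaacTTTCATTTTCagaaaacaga
Stat2 at chr10:128270266-128270295, plus strand: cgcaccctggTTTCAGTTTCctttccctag
Isg15 at chr4:156200871-156200900, minus strand: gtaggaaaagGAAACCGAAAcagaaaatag
Oas3 at chr5:120777715-120777744, minus strand: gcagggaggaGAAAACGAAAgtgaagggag
Bst2 at chr8:71537577-71537606, minus strand: ccaggaaaatGAAACTGAAAggctgcagtt
In Ifit1 the cores start 104 and 85 bases before the annotated start, in Ifit3 156 and 122, and in Ifit3b 188 and 154. The windows of Ifit3 and Ifit3b are identical, and these neighbouring genes also share much of their transcribed sequence, so reads may have been split between them in counting.

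Of the 3 transcription factors, Irf9 fell and Stat2 and Irf7 were not called. Irf9 is the DNA-binding subunit of ISGF3. Irf9 was measured at 138, 112, 153 and 112 CPM in the wild-type naive libraries, 144, 140.2, 105 and 107 in knock-out and 105, 129.7, 122 and 105 in knock-in. At day 7 Irf9 stood at 93.1, 118, 121, 99.2 and 109 in wild-type, 96.1, 104, 84.7 and 89.9 in knock-out and 95.5, 81.4, 88.3 and 103 in knock-in. The highest values were naive in every genotype, 10 of the 13 day 7 libraries lay below the lowest naive one, and naive and day 7 libraries did not overlap in knock-out or in knock-in. Day 7 libraries lay wholly below naive ones for 2.64% of all genes in knock-out and 6.33% in knock-in. Irf9 fell by 0.33 log2 units (SE 0.065, adjusted p = 0.00106). Stat2 is the other subunit of ISGF3 among the 35 genes. Stat2 levels were 76.8, 66.6, 81.0 and 58.3 CPM in the wild-type naive libraries, 108, 79.1, 67.6 and 57.9 in knock-out and 54.5, 68.4, 53.8 and 49.8 in knock-in. Day 7 Stat2 levels were 55.8, 61.5, 86.8, 45.1 and 61.6 in wild-type, 53.6, 56.1, 53.6 and 57.3 in knock-out and 70.5, 49.3, 47.5 and 56.4 in knock-in. Day 7 values of Stat2 spread beyond the naive range on both sides in wild-type and knock-in and lay below it in knock-out. The log2 fold change of Stat2 was -0.23 (SE 0.096, adjusted p = 0.12). Irf7, the factor that amplifies interferon production, had a naive range of 31.6 to 92.0 CPM and a day 7 range of 28.3 to 76.0. Its log2 fold change was -0.32 (SE 0.15, adjusted p = 0.17).

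Usp18 removes the ubiquitin-like protein Isg15 from its targets and also blocks signalling at the receptor chain Ifnar2. Usp18 was at 63.7, 39.3, 63.2 and 34.4 CPM in the wild-type naive libraries, 101, 59.7, 51.7 and 33.4 in knock-out and 24.7, 58.1, 33.4 and 27.5 in knock-in. At day 7 Usp18 was at 27.2, 44.7, 61.2, 21.4 and 38.5 in wild-type, 27.8, 27.4, 24.8 and 29.1 in knock-out and 38.6, 28.4, 28.1 and 36.1 in knock-in. Knock-out showed the clearest separation, with all 4 day 7 libraries below all 4 naive ones, while wild-type and knock-in overlapped. Usp18 fell by 0.56 log2 units (SE 0.17, adjusted p = 0.0292), with 12 of 13 day 7 libraries below the naive median. The call was lost in 9 of 31 alternatives. Isg15 itself ranged from 1.98 to 17.4 CPM in naive and 2.37 to 11.2 in day 7 libraries, with a log2 fold change of -0.24 (SE 0.29, adjusted p = 0.671). Its sign depended on the extremes and on the tool: the value was 0.052 without the highest and the lowest library and 0.044 with limma voom.

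Among the 4 nucleic acid sensors, Ddx58, Ifih1 and Zbp1 fell. Ddx58 encodes RIG-I, which detects RNA with a triphosphate end. Ddx58 was counted at 184, 139, 179.5 and 158 CPM in the wild-type naive libraries, 197, 169.9, 141 and 128 in knock-out and 152, 172, 144 and 137 in knock-in. At day 7 Ddx58 was at 117, 143, 156, 131 and 131 in wild-type, 124, 151, 121 and 129 in knock-out and 132, 114, 127 and 126 in knock-in. The difference was of like size in each genotype, with log2 fold changes of -0.28 in wild-type, -0.28 in knock-out and -0.28 in knock-in, none called on its own. Ddx58 fell by 0.28 log2 units (SE 0.063, adjusted p = 0.00416). Ifih1 encodes MDA5, the sensor of long double-stranded RNA. Ifih1 levels were 65.3, 39.9, 63.4 and 43.9 CPM in the wild-type naive libraries, 71.7, 55.0, 43.9 and 32.2 in knock-out and 35.6, 55.7, 39.3 and 32.6 in knock-in. Day 7 Ifih1 levels were 28.9, 41.5, 52.0, 36.7 and 38.6 in wild-type, 32.6, 43.1, 32.7 and 35.4 in knock-out and 35.6, 28.1, 37.4 and 32.8 in knock-in. The 5 highest Ifih1 values were all naive, and the remaining libraries overlapped. Ifih1 fell by 0.40 log2 units (SE 0.11, adjusted p = 0.0208), a call lost without knock-out naive replicate 1 (adjusted p = 0.0522). Zbp1 senses Z-form nucleic acid and starts necroptosis. Zbp1 stood at 156, 139, 191 and 128 CPM in the wild-type naive libraries, 196, 169.9, 133 and 116 in knock-out and 124, 173, 126 and 122 in knock-in. At day 7 Zbp1 stood at 99.95, 136, 175, 94.7 and 108 in wild-type, 115, 119, 90.4 and 107 in knock-out and 146, 91.1, 96.3 and 107 in knock-in. For Zbp1, 9 of 13 day 7 libraries were below every naive library, and wild-type day 7 replicate 3 reached the naive upper range. Zbp1 fell by 0.38 log2 units (SE 0.10, adjusted p = 0.0146), and its adjusted p was 0.067 without the highest and the lowest library. Dhx58, which encodes the regulator LGP2, had a log2 fold change of -0.33 (SE 0.16, adjusted p = 0.192).

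The enzymes that act on or through double-stranded RNA had 2 calls among 7 genes. Oasl2, an oligoadenylate synthetase-like gene, and Adar, the RNA-editing deaminase, fell. Oasl2 was at 32.2, 25.2, 32.3 and 15.9 CPM in the wild-type naive libraries, 51.8, 26.7, 19.5 and 12.5 in knock-out and 11.6, 28.8, 18.04 and 11.4 in knock-in. At day 7 Oasl2 was at 8.93, 20.3, 24.0, 7.30 and 14.8 in wild-type, 8.30, 13.4, 4.27 and 12.5 in knock-out and 22.1, 12.7, 9.11 and 14.4 in knock-in. The 6 highest values were naive, and the lowest 2 were in knock-out day 7 replicate 3 and wild-type day 7 replicate 4. Oasl2 fell by 0.89 log2 units (SE 0.23, adjusted p = 0.0132), and its adjusted p was 0.0644 without the highest and the lowest library. Adar, the most abundant of these 7 in CPM, was at 215.1, 213.9, 260.0 and 201.7 CPM in the wild-type naive libraries, 247, 235, 255 and 218.2 in knock-out and 187, 227, 209.9 and 206.6 in knock-in. Day 7 Adar levels were 188, 228, 241, 174 and 194 in wild-type, 206.2, 211.3, 184 and 204.7 in knock-out and 196, 207.2, 181 and 196 in knock-in. The libraries differed little, and knock-out naive and day 7 libraries did not overlap. Adar fell by 0.15 log2 units (SE 0.050, adjusted p = 0.0498), at the edge of the threshold and lost in 23 of 31 alternatives. Eif2ak2, the kinase PKR that stops translation, had a log2 fold change of -0.32 (SE 0.13, adjusted p = 0.101). The synthetases Oas1a, Oas2 and Oas3, which make the activator of RNase L, and Oasl1, a relative, had values of -0.14, -0.22, -0.30 and -0.34, with adjusted p from 0.235 to 0.743. Oas1a has close copies beside it, so its counts are uncertain, and its sign turned to 0.052 without the highest and the lowest library.

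The IFIT genes encode proteins that bind viral RNA ends, and all 4 fell. They lie side by side in chr19:34550694-34650009 (GENCODE M21, mm10). Ifit2 had the smallest p of the 35 genes. Ifit2 was at 121, 91.8, 97.8 and 88.2 CPM in the wild-type naive libraries, 128, 105, 85.9 and 84.7 in knock-out and 84.1, 94.3, 92.3 and 88.2 in knock-in. At day 7 Ifit2 was at 74.8, 87.3, 85.8, 69.7 and 77.6 in wild-type, 77.5, 68.0, 58.4 and 72.0 in knock-out and 74.3, 61.7, 78.5 and 73.7 in knock-in. Naive and day 7 libraries did not overlap within any of the 3 genotypes (day 7 wholly lower for 2.92% of all genes in wild-type), and all 13 day 7 libraries lay below the naive median. Ifit2 fell by 0.40 log2 units (SE 0.066, adjusted p = 0.000168). Ifit1, the family member that recognises RNA caps, moved further and varied more. Ifit1 levels were 76.9, 28.7, 78.8 and 28.4 CPM in the wild-type naive libraries, 104, 58.2, 40.0 and 21.8 in knock-out and 19.2, 55.6, 26.2 and 16.4 in knock-in. Day 7 Ifit1 levels were 16.5, 28.9, 44.5, 15.2 and 27.8 in wild-type, 20.7, 26.9, 10.5 and 21.1 in knock-out and 21.3, 19.6, 17.8 and 20.8 in knock-in. The 5 highest values were naive, and the lower naive libraries overlapped with day 7 in each genotype. Ifit1 fell by 1.03 log2 units (SE 0.24, adjusted p = 0.00507), a 2.04-fold lower level. Ifit3, a partner of Ifit1 and Ifit2, was at 57.1, 21.6, 47.1 and 17.7 CPM in the wild-type naive libraries, 89.3, 36.3, 29.2 and 12.3 in knock-out and 10.1, 44.5, 17.2 and 12.8 in knock-in. At day 7 Ifit3 was at 8.57, 19.8, 29.0, 6.05 and 19.1 in wild-type, 9.62, 15.7, 9.45 and 10.98 in knock-out and 20.2, 9.70, 10.7 and 18.2 in knock-in. The 6 highest Ifit3 values were naive, and the lowest was in wild-type day 7 replicate 4. Ifit3 fell by 1.18 log2 units (SE 0.29, adjusted p = 0.00796). Ifit3b, its near copy, had 19.0, 8.06, 18.7 and 4.74 CPM in the wild-type naive libraries, 31.0, 12.3, 9.55 and 3.17 in knock-out and 5.22, 11.7, 5.75 and 4.55 in knock-in. Day 7 Ifit3b values were 2.25, 7.84, 8.73, 1.04 and 3.31 in wild-type, 2.98, 3.86, 0.996 and 3.76 in knock-out and 6.71, 2.54, 1.81 and 5.79 in knock-in. All 13 day 7 libraries were below the naive median of 8.80 CPM, and 6 were below every naive library. Ifit3b fell by 1.51 log2 units (SE 0.35, adjusted p = 0.005), a 2.84-fold lower level.

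**Figure D4:**
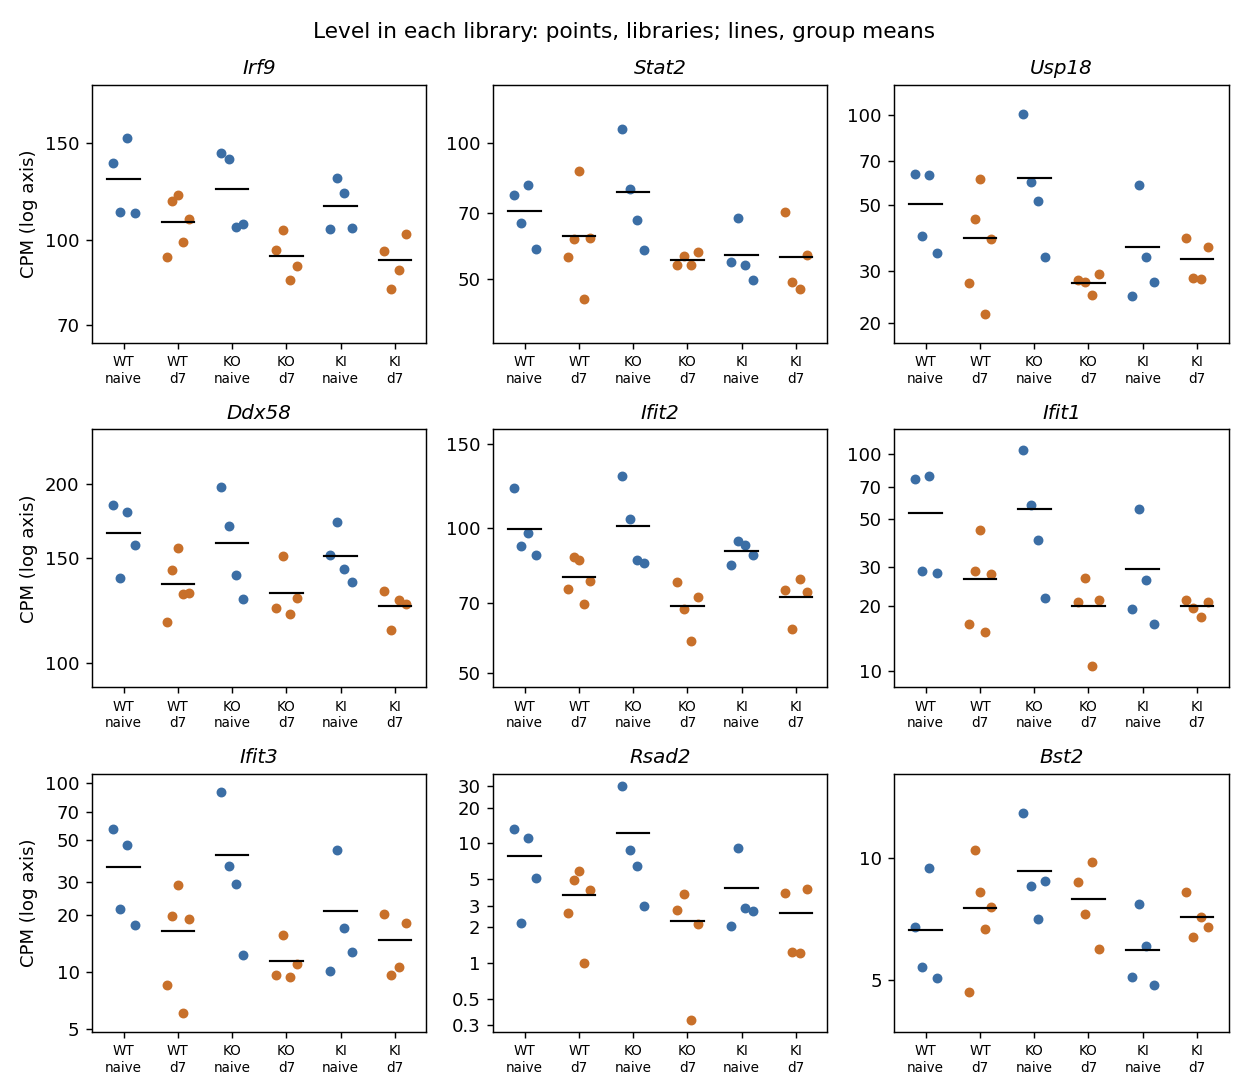
CPM on a log axis for 9 of the genes in each library by group (WT wild-type, KO knock-out, KI knock-in; naive in blue, day 7 (d7) in orange); points are libraries and lines group means. The naive and day 7 points of Ifit2 do not overlap within any genotype, those of Rsad2 and Ifit1 spread over a wide range within groups, and those of Bst2 show no common direction.

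Of the other antiviral effectors, Rsad2, Cmpk2 and Samd9l fell, and Mx1, Isg20 and Bst2 were not called. Rsad2 encodes viperin, which makes a chain-terminating nucleotide from the product of Cmpk2, and the 2 genes are neighbours in chr12:26442746-26479837. Rsad2 was at 13.2, 2.15, 11.1 and 5.16 CPM in the wild-type naive libraries, 30.6, 8.85, 6.54 and 2.99 in knock-out and 2.06, 9.10, 2.91 and 2.73 in knock-in. At day 7 Rsad2 was at 2.61, 4.92, 5.94, 0.993 and 4.09 in wild-type, 2.77, 3.76, 0.332 and 2.13 in knock-out and 3.83, 1.23, 1.22 and 4.15 in knock-in. The 6 highest values were naive, with knock-out naive replicate 1 far above the rest. Rsad2 fell by 1.44 log2 units (SE 0.39, adjusted p = 0.0158), a call lost without that library (adjusted p = 0.0539). Cmpk2 was at 12.9, 7.39, 12.2 and 5.57 CPM in the wild-type naive libraries, 28.6, 15.2, 10.1 and 7.91 in knock-out and 4.86, 13.7, 6.75 and 7.29 in knock-in. At day 7 Cmpk2 was at 5.85, 5.23, 13.9, 4.32 and 9.80 in wild-type, 7.15, 7.53, 2.10 and 5.46 in knock-out and 6.52, 2.08, 5.60 and 7.003 in knock-in. Naive and day 7 libraries of Cmpk2 did not overlap in knock-out and overlapped in wild-type and knock-in. Cmpk2 fell by 0.78 log2 units (SE 0.25, adjusted p = 0.0407), lost in 15 of 31 alternatives. Samd9l restricts poxviruses and cell growth. Samd9l levels were 252, 189, 276 and 229.9 CPM in the wild-type naive libraries, 243, 254, 167 and 183 in knock-out and 206.4, 233, 192 and 172 in knock-in. Day 7 Samd9l levels were 154, 202.6, 195, 194 and 169 in wild-type, 173, 198, 163 and 177 in knock-out and 153, 129.6, 172 and 162 in knock-in. All 13 day 7 libraries were below the naive median, and the 7 highest values were naive. Samd9l fell by 0.34 log2 units (SE 0.071, adjusted p = 0.00213). Mx1 encodes a dynamin-like GTPase whose allele gives no functional protein in most inbred mouse strains, C57BL/6 included. Its log2 fold change was -0.84 (SE 0.33, adjusted p = 0.103), or -0.44 without knock-out naive replicate 1. That library had 80.1 CPM of Mx1 where the other 24 libraries had 3.37 to 18.8. The exonuclease gene Isg20 had a log2 fold change of -0.17 (SE 0.18, adjusted p = 0.603) and Bst2, which encodes tetherin, of 0.066 (SE 0.13, adjusted p = 0.815). Isg20 moved to 0.020 without the highest and the lowest library.

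All 4 genes of the PARP, DTX and TRIM group fell. Parp9, Dtx3l and Parp14 lie together in chr16:35832874-35972605: Parp14 and Parp9 are ADP-ribosyltransferase family genes, and Dtx3l encodes the ubiquitin ligase partner of Parp9. Parp14 was at 369, 307, 373 and 311 CPM in the wild-type naive libraries, 428, 378, 327 and 263 in knock-out and 299, 366, 306 and 295 in knock-in. At day 7 Parp14 was at 259.8, 323, 367, 228 and 266 in wild-type, 239.9, 271, 240.2 and 239 in knock-out and 310.0, 218.6, 242 and 283 in knock-in. In CPM Parp14 was the most abundant of the 35 genes, and 7 of 13 day 7 libraries were below every naive library. Parp14 fell by 0.33 log2 units (SE 0.076, adjusted p = 0.00422). Dtx3l was at 209.7, 199, 237 and 209.8 CPM in the wild-type naive libraries, 249.2, 219.5, 203.9 and 164 in knock-out and 184, 223.7, 206.9 and 183 in knock-in. At day 7 Dtx3l was at 160.1, 201.3, 209.4, 148 and 161 in wild-type, 181, 164, 164 and 159.5 in knock-out and 193, 152, 142 and 175 in knock-in. The 6 highest Dtx3l values were naive. Dtx3l fell by 0.29 log2 units (SE 0.065, adjusted p = 0.0036), with log2 fold changes of -0.28, -0.32 and -0.27 in wild-type, knock-out and knock-in, none called on its own. Parp9 levels were 107, 78.7, 123 and 92.4 CPM in the wild-type naive libraries, 126, 108, 68.2 and 71.4 in knock-out and 70.7, 92.9, 81.1 and 79.7 in knock-in. Day 7 Parp9 levels were 54.9, 94.1, 87.3, 66.7 and 81.8 in wild-type, 65.7, 79.1, 66.1 and 63.0 in knock-out and 88.1, 59.4, 69.1 and 77.7 in knock-in. Libraries of Parp9 overlapped between the stages in each genotype. Parp9 fell by 0.33 log2 units (SE 0.098, adjusted p = 0.0292), lost in 8 of 31 alternatives. Trim30a, a TRIM family gene with close copies beside it, was at 188, 140.5, 197 and 139 CPM in the wild-type naive libraries, 196, 174, 151 and 128 in knock-out and 129.9, 176, 136 and 121 in knock-in. Day 7 Trim30a levels were 129.5, 154, 164, 117 and 135 in wild-type, 136, 139, 110.1 and 129.7 in knock-out and 141, 113, 127 and 134 in knock-in. Trim30a overlapped between the stages as well, and the 5 highest values were naive. Trim30a fell by 0.24 log2 units (SE 0.076, adjusted p = 0.0392), lost in 14 of 31 alternatives.

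Among the 5 further induced genes, Xaf1, a regulator of apoptosis, fell. Xaf1 was at 42.9, 26.7, 46.7 and 33.1 CPM in the wild-type naive libraries, 49.96, 34.7, 32.7 and 27.0 in knock-out and 21.2, 36.1, 26.1 and 27.6 in knock-in. At day 7 Xaf1 was at 22.4, 31.2, 43.6, 25.2 and 25.01 in wild-type, 24.9, 28.8, 15.8 and 21.5 in knock-out and 28.2, 21.6, 22.7 and 28.9 in knock-in. Stages overlapped in all 3 genotypes. Xaf1 fell by 0.38 log2 units (SE 0.12, adjusted p = 0.0428), lost in 17 of 31 alternatives. Ifi27l2a, the member with the highest level per kilobase, was at 39.7, 34.64, 55.5 and 24.6 CPM in the wild-type naive libraries, 49.2, 44.3, 38.8 and 36.8 in knock-out and 18.2, 43.0, 31.3 and 25.5 in knock-in. Day 7 Ifi27l2a levels were 29.99, 46.0, 83.7, 22.7 and 38.9 in wild-type, 41.5, 47.3, 31.2 and 38.2 in knock-out and 35.6, 24.1, 24.4 and 40.1 in knock-in. Its highest library was wild-type day 7 replicate 3, without which the log2 fold change of 0.058 (SE 0.17, adjusted p = 0.878) became -0.066. Rtp4, a receptor-transporting protein gene, missed the threshold with a log2 fold change of -0.45 (SE 0.17, adjusted p = 0.0772). Ifi44 had -0.73 (SE 0.30, adjusted p = 0.12) and Ifi35 -0.16 (SE 0.082, adjusted p = 0.218) on the same scale.

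Taken one genotype at a time, 0 or 1 members passed the edgeR test, a count that depends on the filter on low counts. With no filter, edgeR called 18 members lower in wild-type, 30 in knock-out and 9 in knock-in, where 894, 540 and 890 of 29775 genes were called in all. In that fit the estimated prior degrees of freedom were infinite, beside 8.38 with the filter, so each gene was tested against a spread common to genes of its abundance and not its own. The values that follow for each genotype are from fits with the filter. In wild-type, 0 of 35 were called by edgeR (0.966% of all genes were called lower), 0 by DESeq2 and 1, Samd9l, by limma voom. At an unadjusted p under 0.05, 11 were lower, where 7.28% of all genes were lower. These were Irf9, Ifih1, Ddx58, Oasl2, Ifit1, Ifit2, Ifit3, Ifit3b, Samd9l, Parp9 and Dtx3l. The wild-type median was -0.28 with 31 of 35 negative, and the smallest adjusted p was that of Samd9l at 0.0991 (log2 fold change -0.37). Naive and day 7 libraries of the wild-type did not overlap for 1 member, Ifit2, where 2.92% of all genes showed day 7 libraries wholly below naive ones. In knock-out, 1 member, Ifit2, was called lower (0.197% of all genes), with a log2 fold change of -0.55 (SE 0.12, adjusted p = 0.0234). DESeq2 called 5 members, Irf9, Usp18, Ifit2 and Ifit3b among them, and limma voom 0. All 35 members were negative in knock-out, 29 of them at an unadjusted p under 0.05 (6.81% of all genes), with a median of -0.57. Day 7 libraries lay wholly below naive ones for 6 members, Stat2, Irf9, Usp18, Adar, Ifit2 and Cmpk2 (2.64% of all genes). The lowest log2 fold changes in knock-out were -2.54 (SE 0.70, adjusted p = 0.0938) for Rsad2, -2.34 (SE 0.63, adjusted p = 0.0846) for Ifit3b and -1.97 (SE 0.57, adjusted p = 0.11) for Mx1. These values lean on 1 library: without knock-out naive replicate 1 the median was -0.37, Ifit2 was no longer called (adjusted p = 0.137) and Rsad2 stood at -1.498. Ifit2 was also not called without knock-out naive replicate 2 or knock-out day 7 replicate 3. Without knock-out naive replicate 4, 9 members were called. The shares of all genes called by DESeq2 and with that library left out are not given here. In knock-in, 0 members were called by edgeR (1.01% of all genes lower), 0 by DESeq2 and 0 by limma voom. There 25 of 35 were negative, 5 at an unadjusted p under 0.05 (7.23% of all genes), with a median of -0.13. The 5 were Irf9, Ddx58, Ifit2, Samd9l and Dtx3l. Day 7 libraries lay wholly below naive ones for Irf9, Ddx58 and Ifit2 (6.33% of all genes). The knock-in median turned to 0.057 without knock-in naive replicate 2, and was -0.24 without knock-in naive replicate 1.

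An interaction term asked if the day 7 change was unlike between genotypes. For knock-out against wild-type, 0 of 35 members were called by edgeR (0% of all genes lower), DESeq2 or limma voom, and 3, Oasl1, Cmpk2 and Isg20, had lower values at an unadjusted p under 0.05 (4.07% of all genes). The median was -0.36, and -0.12 without knock-out naive replicate 1. With no filter on low counts, where a gene's own spread is not used, edgeR called 9 members lower in this interaction. The share of all genes called in that fit is not given here, so that count is not read as a result about the members. Isg20 had the smallest adjusted p, with an interaction of -1.22 (SE 0.43, adjusted p = 0.516) on the log2 scale. For knock-in against wild-type 0 were called by any of the 3 tools (0% of all genes higher and 0% lower by edgeR). At an unadjusted p under 0.05 there were 0, where 1.86% of all genes were higher and 1.93% lower, and the median was 0.14. With the filter, then, no member's change was shown to differ between genotypes.

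At a given stage, no member was called between genotypes by edgeR, DESeq2 or limma voom on the genes that passed the filter on low counts. With no filter, edgeR called 1 member, Mx1, higher in naive and 6 lower in day 7 knock-out cells, and 7 and 2 lower in knock-in. The shares of all genes called in that fit are not given here, so these counts are not read as a result about the members. The knock-out and knock-in comparisons share the wild-type libraries and are given side by side. In naive cells, edgeR called 0.0204% of all genes between knock-out and wild-type and 0.0136% between knock-in and wild-type. At day 7 these shares were 0.0476% and 0%. Naive knock-out against wild-type had a median log2 fold change of 0.099, with 2 members, Mx1 and Bst2, higher (3.99% of all genes) at an unadjusted p under 0.05. That median was -0.13 without knock-out naive replicate 1 and -0.030 without wild-type naive replicate 4, so its sign rested on single libraries. Mx1 had the highest log2 fold change, 1.24 (SE 0.57, adjusted p = 0.647), and 0.054 without knock-out naive replicate 1. Naive knock-in against wild-type had a median of -0.39 with 35 of 35 negative and 1, Ifi44, lower at an unadjusted p under 0.05 (1.12% of all genes). Ifi44 was lowest, with a log2 fold change of -1.16 (SE 0.54, adjusted p = 0.9995). Wild-type naive libraries were also the shallowest group, with 6024043 to 9351180 counts against 6454287 to 45739082 in knock-in naive. Knock-out naive libraries had 13917799 to 43640843, wholly above wild-type naive, so depth and genotype cannot be told apart in that comparison. Wild-type day 7 libraries had 6434118 to 30383082, so depth also differed between the wild-type stages. The part of depth in these differences was not tested. At day 7, knock-out against wild-type had a median of -0.19, with 1 member, Isg20, lower at an unadjusted p under 0.05 (4.77% of all genes). Isg20 had a log2 fold change of -0.65 (SE 0.30, adjusted p = 0.485) and Rsad2 of -0.79 (SE 0.68, adjusted p = 0.746). Knock-in against wild-type at day 7 had a median of -0.16, with 2, Irf9 and Samd9l, lower at an unadjusted p under 0.05 (2.26% of all genes). Cmpk2 was lowest, with a log2 fold change of -0.58 (SE 0.42, adjusted p = 0.999). Both day 7 medians shrank without wild-type day 7 replicate 3, to -0.070 for knock-out and -0.020 for knock-in. Libraries of every member overlapped in each of the 4 genotype comparisons, while some other genes did not. In naive cells knock-out lay wholly below wild-type for 2.18% of all genes and wholly above for 2.54%, and knock-in for 1.4% and 1.82%. At day 7 the shares were 0.945% and 1.09% for knock-out and 0.66% and 0.809% for knock-in. With the filter, no difference of these genes between genotypes was shown to be larger than the spread between libraries.

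**Figure D5:**
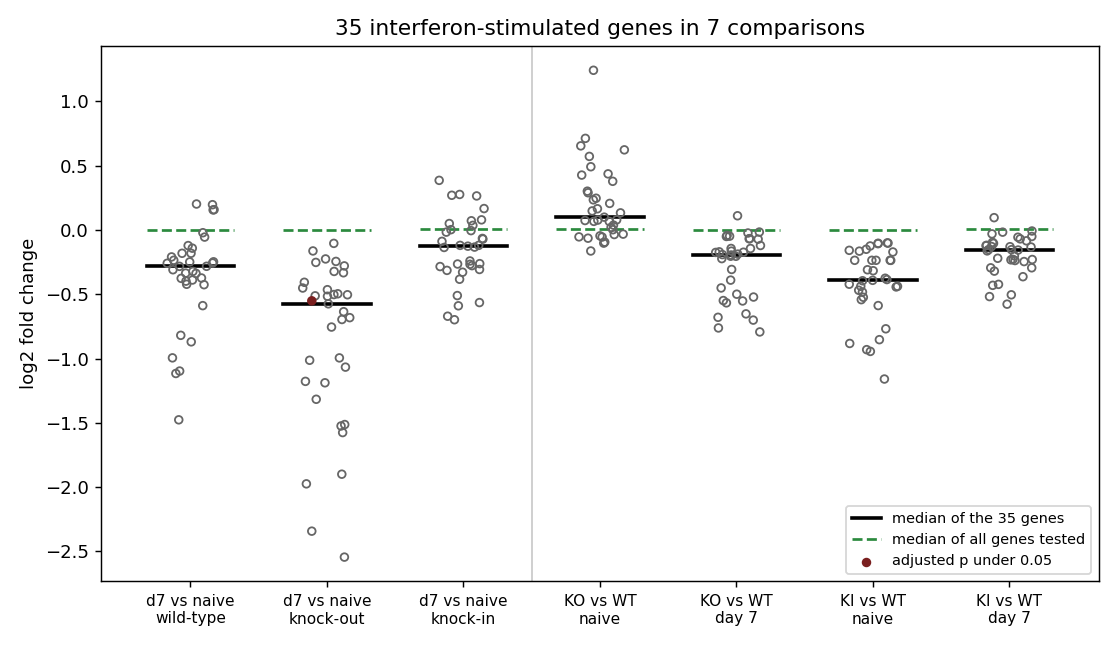
Log2 fold change (vertical axis) of each of the 35 genes in 7 comparisons (horizontal axis; d7 day 7, WT wild-type, KO knock-out, KI knock-in). Circles are genes, the filled circle is Ifit2 in knock-out, the only one that passed the adjusted p threshold of 0.05 here, black lines are medians of the 35 genes and dashed green lines medians of all genes tested. The median of the 35 is lowest for day 7 against naive in knock-out, at -0.57.

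The rest of the pathway was read from written lists in the same comparison, day 7 against naive over the genotypes. Of all genes, 5.06% were called lower and 6.16% higher there. None of 21 interferon ligand genes had enough counts to be tested: Ifnb1 had 0 counts in all 25 libraries, Ifng, the type II ligand, had 102 in 18 libraries and Ifnk 140 in 16. Of 9 receptor and transducer genes 1 fell and 1 rose. Jak1, the kinase bound to the receptor chain Ifnar2, had a log2 fold change of -0.13 (SE 0.024, adjusted p = 0.000456) and Stat3 of 0.16 (SE 0.050, adjusted p = 0.0392). The receptor chains were not called, with log2 fold changes of -0.11 (SE 0.039, adjusted p = 0.0538) for Ifnar1 and 0.015 (SE 0.072, adjusted p = 0.932) for Ifnar2. Over the libraries, Ifnar1 had r = 0.00426 and Ifnar2 r = 0.448 with the mean of the 35 genes, on the measure of likeness used above. For the type II receptor chains, r was 0.592 for Ifngr1 and -0.357 for Ifngr2. Of 9 inhibitors of the pathway 2 rose and 2 fell. Socs3, a feedback inhibitor induced mainly by Stat3, was at 34.4 ± 3.66 CPM (SD, n = 12) in naive and 99.0 ± 37.3 CPM (SD, n = 13) in day 7 libraries. Socs3 rose by 1.51 log2 units (SE 0.14, adjusted p = 2.06e-08). Socs1, which inhibits Jak1 and Tyk2, had a log2 fold change of 0.43 (SE 0.12, adjusted p = 0.0155), the phosphatase gene Ptpn2 of -0.16 (SE 0.050, adjusted p = 0.0298) and Pias1 of -0.16 (SE 0.048, adjusted p = 0.0287). Of 17 tested genes of nucleic acid sensing upstream of interferon 3 fell and 0 rose: Tlr7, the endosomal receptor of single-stranded RNA, had a log2 fold change of -0.60 (SE 0.14, adjusted p = 0.00448), the kinase gene Tbk1 of -0.14 (SE 0.046, adjusted p = 0.0448) and its adaptor Tank of -0.17 (SE 0.051, adjusted p = 0.0274). Tlr7 had r = 0.712 with the mean of the 35 genes. Jak1, Socs3, Socs1 and Tlr7 were called in each of 31 alternatives, while Stat3 lost its call in 14, Ptpn2 in 10, Pias1 in 8, Tbk1 in 18 and Tank in 8. Without the highest and the lowest library Stat3, Ptpn2, Tbk1 and Tank were not called. In that fit 1 gene of nucleic acid sensing that was not called with all 25 libraries was called higher. Without knock-out naive replicate 1 alone, 2 genes of nucleic acid sensing were called lower and 1 higher.

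Calls among interferon-induced genes outside the 35 were also all in the lower direction. These lists were chosen with earlier results of these data known, and many of their genes moved with the 35 in the same libraries (r = 0.944 for Rnf213). Their calls are therefore no independent support. In this comparison 5.06% of all genes were called lower and 6.16% higher. Of a list of 60 further type I interferon-induced genes 54 were tested, 32 fell and 0 rose, with a median log2 fold change of -0.26. Of 17 interferon-induced GTPases, which respond to both interferon types, 13 fell and 0 rose, with a median of -0.38. Without the highest and the lowest library 23 and 12 of these were called lower, and the share of all genes called in that fit is not given here. Examples are Apol9b and Tgtp2. Apol9b was at 6.20 ± 1.54 CPM (SD, n = 12) in naive and 2.09 ± 0.929 CPM (SD, n = 13) in day 7 libraries, with a log2 fold change of -1.61 (SE 0.24, adjusted p = 4.45e-05). Tgtp2 was at 98.1 ± 7.15 CPM (SD, n = 12) in naive and 63.0 ± 22.2 CPM (SD, n = 13) in day 7 libraries, with -0.68 (SE 0.11, adjusted p = 0.000137). The p200 family gene Ifi213 had a log2 fold change of -0.54 (SE 0.095, adjusted p = 0.000338), the ligase gene Rnf213 of -0.37 (SE 0.10, adjusted p = 0.0205), with an adjusted p of 0.0868 without the highest and the lowest library, and Ly6c2, a surface antigen gene, of -1.14 (SE 0.30, adjusted p = 0.0117). The other type I induced genes that fell were Epsti1, Herc6, Ifi203, Ifi206, Ifi208, Ifi209, Mndal, Phf11c, Slfn1, Slfn5, Slfn8, Trim12a, Trim12c, Trim34a, Trim21, Ddx60, Parp11, Sp100, Sp110, Pml, Ms4a4b, Ms4a4c, Oas1b, Apol9a, Pnpt1, Nlrc5, Xrn1 and Znfx1. The other GTPases that fell were Gbp4, Gbp6, Gbp7, Gbp8, Gbp9, Gbp10, Igtp, Irgm1, Irgm2, Iigp1, Tgtp1 and Ifi47. Members of the Gbp, p200, Slfn and Trim families resemble each other in sequence, so their counts are uncertain.

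Markers of the sorted cells and of other cells were read in the same libraries. Their calls are from day 7 against naive over the genotypes, where 5.06% of all genes were called lower and 6.16% higher. The summed CPM of 9 CD4 T cell markers (Cd3d, Cd3e, Cd3g, Cd4, Trac, Cd28, Lck, Cd5 and Cd6) was 2481 to 2719.9 (median 2597) in naive and 2504 to 2824 (median 2636) in day 7 libraries, and none of the 9 was called. Of 10 activated and memory CD4 markers 9 were tested and 3 rose, Ccr6, Icos and Mki67, with sums of 211.02 to 329 (median 271) and 198 to 595 (median 316). Among 10 genes of NK, gamma-delta and CD8 T cells 9 were tested and 4 fell, Nkg7, Klrk1, Klrd1 and Trdc, with sums of 30.5 to 65.3 (median 36.3) in naive and 20.1 to 35.4 (median 25.9) in day 7 libraries. Their part in the lower level of the interferon-stimulated genes was not tested. For 10 myeloid markers, 5 of them tested and none called, the sums were 5.77 to 21.5 (median 8.70) and 5.57 to 18.7 (median 8.98). Cd14 had no counts in 23 libraries. For plasmacytoid dendritic cells, the main producers of interferon alpha, the 6 markers summed to 77.4 to 107 (median 98.2) and 72.1 to 109.5 (median 87.1) with Ccr9 lower, a call lost without the highest and the lowest library. Pacsin1, at 59.2 to 98.1 CPM, made up most of that sum. Siglech, which marks these cells, was at most 0.540 CPM and at 0 in 9 libraries, Cox6a2 was at 0 in 24 and Klk1 in all 25. Of 9 B cell markers none was called, with sums of 2.93 to 29.6 (median 9.25) and 1.69 to 25.6 (median 6.86). Neutrophil, dendritic cell and red cell markers, none called, summed to at most 6.05, 4.90 and 10.3 CPM in any library, the first of these in knock-out naive replicate 1.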

How the data were processed

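RNA of sorted CD4+ T cells was turned into 25 libraries with the SMARTer Stranded Pico kit and read as paired ends, per the labels' protocols. The authors deposited raw counts per gene. The submitters' processing notes name mm10 and DESeq2. The aligner, the counter, its strand setting and the annotation are not given in the sources used here. Near-identical genes and genes that overlap may therefore share reads.

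Symbols came from GENCODE M21 (45229 of 46078 identifiers). The 35 genes and the other lists were chosen with earlier results of these data known, and 1 gene of the other lists is not reported here. Counts of all 25 libraries were fitted in 1 model of 6 groups with the edgeR 4.0.16 quasi-likelihood test (TMM scaling, filterByExpr with a minimum count of 10 and a minimum total of 15, in R 4.3.3), and p was adjusted by Benjamini-Hochberg over 14703 genes, with a threshold of 0.05, in each of 10 comparisons. Levels are CPM on TMM-scaled libraries, and log2 CPM used a prior count of 0.5. Each SE of a log2 fold change was derived as its absolute value divided by the square root of the quasi-likelihood F statistic. On simulated data with 200 changed genes, the day 7 against naive comparison over the genotypes recovered 58.2% of genes changed 1.5-fold and 77.6% of those changed 2-fold. Recovery of changes below 1.5-fold, or of genes that move together from library to library, was not tested. These rates are therefore not read as a result about the 35 genes, whose median log2 fold change in that comparison was -0.33.

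Values in every library are given for each gene called in any comparison and for the most abundant gene or pair of genes of a role. The genes of other lists are named where called, and outside the lists the 10 of at least 5 mean CPM most like the 35 in pattern. Alternatives were RLE scaling, no filter, DESeq2 1.42.0, limma 3.58.1 voom with quality weights, the compared groups alone, a block of each 4 library numbers that follow each other, and each library left out. Leaving out the highest and the lowest library together was chosen after seeing the data. No pair of libraries of a group agreed within sampling noise.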

Additional observations from a re-analysis of the deposited data

Results flagged for a closer look

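Over the 35 genes and the level, each looked at within the 6 groups, 12 sets of values, 5.56% of those looked at, held a library whose gap to its nearest neighbour passed Dixon's 95% critical value. Chance gives about 1 in 20, or 5%, if the sets are independent. The genes moved together from library to library, so the count cannot be weighed against that rate, and the values follow as a description. Knock-in naive replicate 2 accounted for 6 of the 12 sets, each time above the other 3 libraries of its group. It had 8.31 CPM where the other 3 had 2.58 to 3.02 for Isg15. For the sensor gene Zbp1 it had 173 CPM where the other 3 had 122 to 126. Ifit3b stood at 11.7 CPM where the other 3 had 4.55 to 5.75, and Rsad2 at 9.10 CPM where the other 3 had 2.06 to 2.91. Parp14 was at 366 CPM where the other 3 had 295 to 306, and Ifi35 at 38.9 CPM where the other 3 had 28.1 to 28.5. This library had 12493095 counts, and the knock-in median given above changed sign without it.

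Mx1 in knock-out naive replicate 1 was at 80.1 CPM where the other 3 had 6.84 to 16.8. At day 7, Ifi35 in knock-out replicate 3 was high, at 33.5 CPM where the other 3 had 25.2 to 26.4, in the library that was lowest for 10 of the other genes. Parp14 in knock-out day 7 replicate 2 was at 271 CPM where the other 3 had 239 to 240.2. Among knock-in day 7 libraries, Dhx58 was low in replicate 3, at 13.5 CPM where the other 3 had 17.3 to 17.9, Oas2 was high in replicate 4, at 55.9 CPM where the other 3 had 40.5 to 42.9, and Ifi44 was high in replicate 1, at 3.64 CPM where the other 3 had 2.42 to 2.48.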

How the results depend on the processing

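In day 7 against naive over the genotypes, the count of 19 members lower became 29 with no filter on low counts, where 1987 genes were called in all. It was 12 with limma voom, 11 (without knock-out naive replicate 1) to 22 (without knock-out naive replicate 4) with each library left out, and 9 without the highest and the lowest library. It was 18 with RLE scaling, 17 with DESeq2 and 17 with the block of library sets, and the median kept its sign throughout, from -0.38 to -0.26 with each library left out. With no filter, 18 members were called in wild-type, 30 in knock-out and 9 in knock-in for day 7 against naive. The same setting called 1 and 6 for knock-out against wild-type in naive and day 7 cells, 7 and 2 for knock-in against wild-type, and 9 for the knock-out interaction. The shares of all genes called in those genotype and interaction comparisons are not given here. In that fit the estimated prior degrees of freedom were infinite, so that a gene's own spread did not enter its test. In wild-type, limma voom called 1, and leaving out each library gave 0 to 1 (without wild-type naive replicate 2). In knock-out, DESeq2 called 5, limma voom 0, the fit of the compared groups alone 0, each library left out 0 to 9, and the fit without the highest and the lowest library 0. For the alternatives other than no filter, the shares of all genes called are not given here. Their counts are therefore not read as a result about the members. With each library left out, the median ran from -0.39 to -0.21 in wild-type, -0.74 to -0.37 in knock-out and -0.24 to 0.057 in knock-in. For knock-out against wild-type it ran from -0.13 to 0.29 in naive and -0.30 to -0.070 in day 7 cells. In knock-in against wild-type these ranges were -0.59 to -0.21 and -0.29 to -0.020. The interactions ran from -0.51 to -0.12 for knock-out and 0.055 to 0.36 for knock-in. The naive knock-out median turned to -0.093 with limma voom and -0.13 without the highest and the lowest library, the day 7 knock-in median to 0.0011 with the block of library sets, and the knock-out interaction median to 0.00077 without the highest and the lowest library. Of the 19 called genes, none changed sign in that comparison under any alternative. Over the genotypes, Isg15 came to 0.044 with limma voom. Without the highest and the lowest library, Isg15 was 0.052, Oas1a 0.052 and Isg20 0.020, and Rsad2 in the knock-out interaction 0.017. Ifi27l2a was -0.0051 without knock-in naive replicate 1 and -0.066 without wild-type day 7 replicate 3, and up to 0.14 with other libraries left out. Ifnar2, near 0, was -0.00039 with the block, and -0.019, -0.0017 and -0.011 without knock-out day 7 replicate 2, knock-in day 7 replicate 4 and knock-out day 7 replicate 4, and up to 0.073 with other libraries left out. Stat2 between knock-in and wild-type at day 7 was 0.0064 without wild-type day 7 replicate 3. No paired analysis was possible because each library has a number of its own and no label ties libraries of different groups together. The block of library sets takes neighbouring library numbers as a stand-in for handling, which no label gives.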

Other observations

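The lists of other interferon-induced genes also held calls within single genotypes. In wild-type, 10 of 54 other type I induced genes fell from naive to day 7 and 0 of 17 GTPases, with median log2 fold changes of -0.29 and -0.28. In knock-out 1 of 54 and 3 of 17 fell, with medians of -0.34 and -0.57, and in knock-in 4 of 54 and 1 of 17, with medians of -0.18 and -0.36. Of all genes, 0.966% were called lower in wild-type, 0.197% in knock-out and 1.01% in knock-in. Whether these counts differ between genotypes was not tested.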
